A study of Mus musculus with 8 samples.

Results

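The immunoglobulin heavy variable (Ighv) segments are the genes that supply most of the variable domain of the antibody heavy chain. They were taken here as every entry of the deposited count table whose Ensembl identifier carries a GRCm38 symbol beginning with Ighv, which gave 175 of the 43629 genes in the table. Of these, 113 were annotated as functional segments, 60 as pseudogenes and 2 as IG_LV_gene. A pair of entries carried each of 2 symbols, Ighv1-13 and Ighv5-8. Another 10 annotated Ighv genes were not analysed here.

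RNA had been measured in 8 libraries of ex vivo follicular B cells from mouse spleen, mature B cells that recirculate through lymphoid follicles. Every library carried the Rosa26GFPZFP36L1 allele by its genotype label. The 4 control libraries had that allele alone, and the 4 libraries labelled GFP-ZFP36L1 had CD23cre/+ as well, a recombinase driven from a gene that is switched on in mature B cells. ZFP36L1 is an RNA-binding protein that promotes decay of mRNAs with AU-rich elements, and the presence of Cre and expression of the protein cannot be told apart. Cells had been enriched with a B cell kit and sorted through a gate that the protocol writes as B220+, CD93+, CD21+ and CD23+. Age, strain and sex are not in the labels used here. Nor do the labels tell whether each library came from its own animal, so the tests measure the spread between these libraries. Within each group the libraries were numbered 1 to 4 in accession order, and values below follow that order.

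A developing B cell joins a variable segment to a diversity (D) and a joining (J) segment by cutting and religating the DNA of the heavy-chain locus, in a reaction started by the RAG recombinase. The join is made in the bone marrow, so a mature follicular B cell transcribes a segment that was chosen earlier. In mouse the variable segments lie in a long array on chromosome 12 and are sorted by sequence into families, given by the number after Ighv. Ighv1, long known as the J558 family, is the largest and lies mostly far from the D segments, whereas Ighv5 and Ighv2 lie mostly near them. Usage is read here as the share of all Ighv counts that fell on a segment or family in a library. Shares in a library add up to a fixed total, so a larger share in a part goes with smaller shares elsewhere. In bulk RNA, fewer cells using a segment and less RNA per such cell cannot be told apart.

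The 3′ end of the exon that encodes the variable domain (the V exon) holds the start of CDR3, the loop that is often central to antigen contact, and it is the end that is joined to D and J. The last 60 bases of the V exon are shown for the 5 most used segments, because they show how alike the ends of segments from different families are. The invariant cysteine codon and all bases after it are in capitals. All lie on the minus strand of GRCm38 and are printed 5′ to 3′ in the direction of transcription, from GENCODE M21 transcripts.
Ighv1-26: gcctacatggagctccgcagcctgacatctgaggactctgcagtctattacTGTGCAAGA
Ighv9-3: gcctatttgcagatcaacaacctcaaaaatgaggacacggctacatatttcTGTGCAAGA
Ighv1-82: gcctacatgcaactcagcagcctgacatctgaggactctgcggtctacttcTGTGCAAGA
Ighv1-9: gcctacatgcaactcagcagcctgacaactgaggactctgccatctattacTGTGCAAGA
Ighv3-6: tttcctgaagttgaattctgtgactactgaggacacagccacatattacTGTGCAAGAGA
The 9 bases TGTGCAAGA were the most common end of a V exon. Searched on the sense strand in the last 30 bases of the V exon, they were present in 63 of the 113 functional segments (55.8%) and in 15 of the 60 pseudogenes (25.0%). The functional segments with this motif had a median share of 0.612% of Ighv counts and the 50 without it 0.323%. Members with the motif drew 71.7% of Ighv counts in all. Among the 12 most used segments only Ighv8-8 and Ighv5-17 lacked it, and their ends are shown for comparison.
Ighv8-8: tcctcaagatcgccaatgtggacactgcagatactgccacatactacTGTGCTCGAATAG
Ighv5-17: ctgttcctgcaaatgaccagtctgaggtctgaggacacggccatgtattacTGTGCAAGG

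The libraries held between 38947758 and 51024233 counts, of which between 68092 and 93363 fell on Ighv segments. Between 129 and 133 of the 175 entries had at least 1 count in a library. No count was seen in any library for 29 entries, namely 26 pseudogenes, both IG_LV_gene entries and 1 functional segment, Ighv7-2. Another 36 had counts too few to pass the filter on low counts, and their summed mean share was 0.102%. The 110 that passed were 100 functional segments and 10 pseudogenes.

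Counts of the Zfp36l1 gene did not follow the label. The label places the allele at Rosa26, and counts per gene cannot tell its transcripts from those of the endogenous gene. Zfp36l1 had 599, 523, 532 and 535 CPM (counts scaled to a common library size with TMM factors) in the controls and 471, 447, 437 and 402 CPM in the libraries labelled GFP-ZFP36L1, so every labelled library lay below every control. Its log2 fold change was -0.32 ± 0.07 (SE; adjusted p 0.0348, edgeR). Fcer2a, the gene for CD23, which is in the gate and whose regulatory sequence drives the Cre, had 1388 to 1555 CPM in the controls and 1114 to 1358 CPM in the labelled libraries, with no overlap. Its log2 fold change was -0.27 ± 0.08 (SE; unadjusted p 0.00609, adjusted p 0.102, edgeR) and did not pass. Cr2, the gene for CD21 of the gate, had 1160 to 1299 CPM in the controls and 1185 to 1447 CPM in the labelled libraries. Cd93, which the gate names, had 8.40 to 14.6 CPM, and the T cell receptor component Cd3e had at most 0.0487 CPM. The T cell markers with enough counts to be tested, Lck and Zap70, had 31.4 to 34.4 and 1.09 to 2.41 CPM.

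Ighv1 supplied more than any other family, at a mean of 59.3% of Ighv counts over the 8 libraries. Its share was 60.01, 59.997, 59.7 and 58.7% in the controls and 59.4, 59.1, 58.99 and 58.2% in the labelled libraries, so the groups overlapped. Ighv5 followed at 9.42%. Ighv9 had 6.44%, Ighv8 5.18%, Ighv3 4.45%, Ighv2 3.87%, Ighv14 3.23%, Ighv6 2.67%, Ighv10 2.39% and Ighv7 1.40%. Ighv4, Ighv13, Ighv15, Ighv12 and Ighv11 each had under 1%, from 0.664% down to 0.104%. Ighv16, with 1 functional member, drew 2 counts over all 8 libraries. Ighv1 also has the largest number of functional members, 53. Per functional member its mean share was 1.118%, below that of Ighv9 (4 members, 1.61%) and Ighv10 (2 members, 1.19%). In several families 1 segment led: Ighv9-3 held 76.5% of the Ighv9 share, Ighv7-3 72.3% of Ighv7 and Ighv3-6 69.5% of Ighv3, whereas Ighv1-26 held 16.2% of Ighv1.

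**Figure D1:**
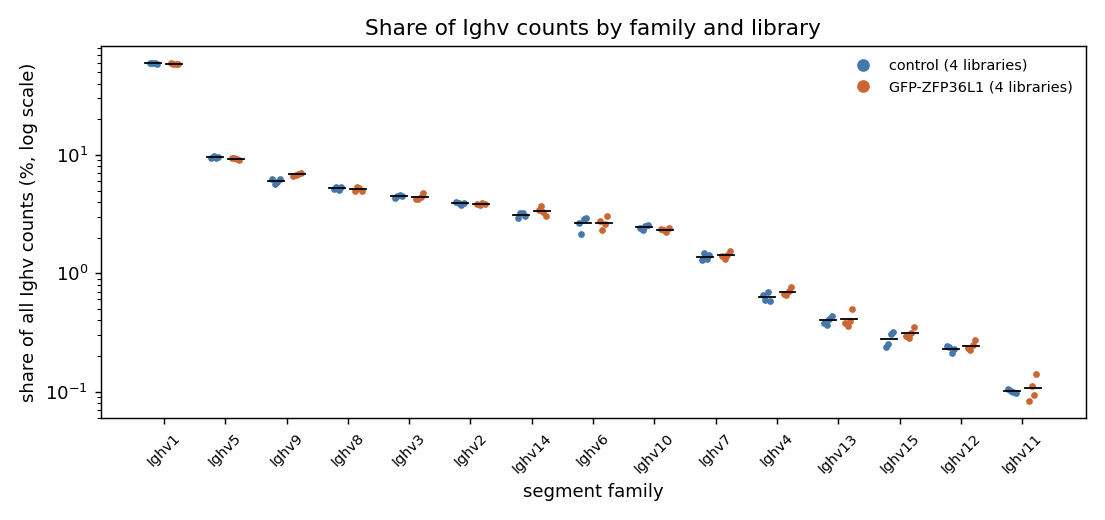
Share of all Ighv counts in percent (vertical log axis) for the 15 families with a mean share of at least 0.1% (horizontal axis). Each point is a library, blue for control and orange for those labelled GFP-ZFP36L1, and each bar is a group mean of 4. Family means span 59.3% to 0.104%, and the groups do not overlap in Ighv9 alone.

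Of the 15 families tested, only Ighv9 had groups that did not overlap. Its share was 6.25, 5.68, 5.96 and 6.25% in the controls and 6.61, 6.79, 6.86 and 7.10% in the labelled libraries. All 4 labelled libraries thus lay above all 4 controls. The means were 6.84% ± 0.203 against 6.03% ± 0.272 (SD, n = 4 each), a ratio of 1.13. An exact permutation test of that difference, two-sided, gave p = 0.02857, the smallest value that 4 against 4 libraries allow. After Benjamini-Hochberg adjustment over the 15 families this exact p was 0.429. With these group sizes no family can pass that adjustment unless at least 9 reach the smallest p together. A pass was thus out of reach for Ighv9 alone. The adjusted p still takes account of the 15 families tested, and it does not set Ighv9 apart from chance. In the other large families the groups overlapped. Ighv1 had 58.9% ± 0.511 against 59.6% ± 0.599 (SD, n = 4 each; exact permutation p = 0.143), and Ighv5 9.297% ± 0.208 against 9.54% ± 0.213 (exact permutation p = 0.171). Ighv14 had 3.36% ± 0.264 against 3.11% ± 0.153 (SD, n = 4 each; exact permutation p = 0.171). The remaining 11 tested families gave exact permutation p from 0.143 to 0.943, before adjustment. Among them were Ighv11 and Ighv12, families used by many B1 cells of the peritoneal cavity. Ighv11 had 0.107% ± 0.0249 against 0.101% ± 0.00284 and Ighv12 0.244% ± 0.0212 against 0.229% ± 0.0135 (SD, n = 4 each), with overlapping groups.

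Usage was spread over the whole array. The array was divided into 4 stretches of equal length, 607 kb each, between the starts of the outermost Ighv genes. Starting from the D segments, the stretches held 25.2, 26.1, 27.0 and 21.7% of Ighv counts as means of 8 libraries, with 34, 32, 24 and 23 functional segments. Ighv2, Ighv5 and Ighv14 make up most functional segments of the first stretch, and only Ighv1 and Ighv8 have functional members in the far pair of stretches. The median share of a functional segment was 0.495, 0.429, 0.477 and 0.801% in order from the D segments. Spearman's rho between distance from the D segments and share over the 113 functional segments was 0.08, a description over segments that share their libraries. Ighv5-2, a segment often rearranged in fetal and precursor B cells, is the functional segment nearest the D segments at 51.7 kb. It had a mean share of 0.430% and ranked 62 among all members. The most distant, Ighv1-85 at 2473 kb, had 0.844%.

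**Figure D2:**
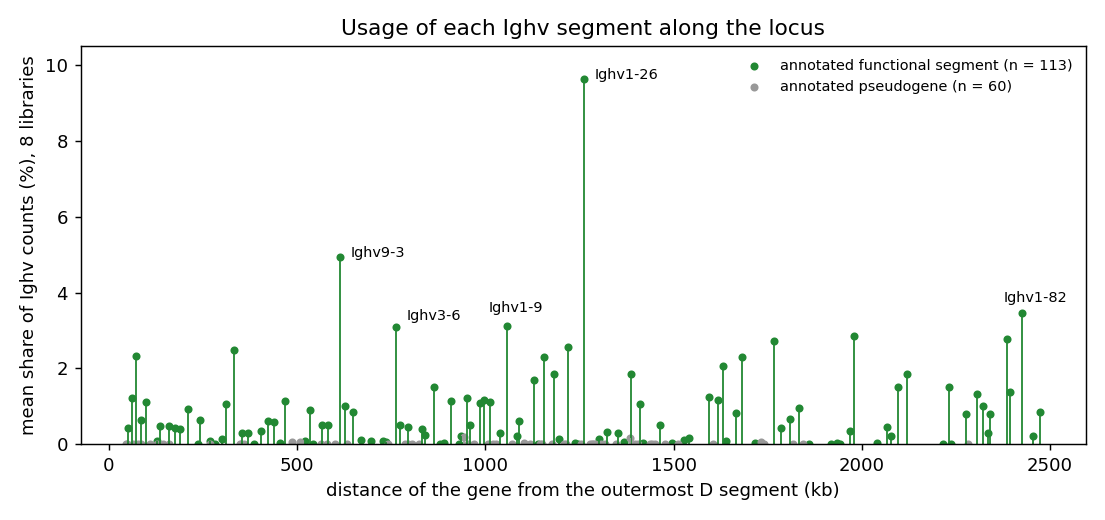
Mean share of Ighv counts over the 8 libraries in percent (vertical axis) for each segment against its distance from the D segments in kb (horizontal axis), green for functional segments and grey for pseudogenes. Ighv1-26 reaches 9.63%, Ighv9-3 4.93%, and pseudogenes stay at or under 0.182%.

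The stretch nearest the D segments had a larger share in every labelled library (25.5, 25.8, 25.6 and 25.4%) than in every control (24.7, 25.0, 24.4 and 24.99%). The difference was 0.787 percentage points (exact permutation p = 0.02857, and 0.114 after Benjamini-Hochberg adjustment over the 4 stretches). No stretch could pass that adjustment unless at least 3 of the 4 reached the smallest p together. Ighv9-3 lies in this stretch, and its own share differed by 0.709 points. Without Ighv9-3 in the sum, the stretch held 20.3% ± 0.239 of all Ighv counts in the labelled libraries and 20.2% ± 0.352 in the controls (SD, n = 4 each), and the groups overlapped. They also overlapped in the other 3 stretches, where the differences were -0.231, -0.273 and -0.283 points. Because shares add up to a fixed total, these differences are not separate from the gain in the first stretch.

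A small number of segments made up a large part of the counts. The 12 most used held between 41.96 and 42.6% in each library, 16 or 17 segments made up 50%, and 55 to 57 made up 90%. Ighv1-26 (ENSMUSG00000094546, chr12:114788372-114788805, minus strand), of the J558 family, led in all 8 libraries. Its share was 9.45, 9.53, 9.73 and 9.68% in the controls and 9.56, 9.50, 9.68 and 9.88% in the labelled libraries. These values had a coefficient of variation of 1.47%, the lowest among the 12 most used, and the groups overlapped. After Ighv1-26 and Ighv9-3 came Ighv1-82 (3.45%), Ighv1-9 (3.11%), Ighv3-6 (3.09%), Ighv1-64 (2.85%), Ighv1-80 (2.77%), Ighv8-8 (2.73%), Ighv1-22 (2.56%), Ighv5-17 (2.48%), Ighv5-4 (2.32%) and Ighv1-55 (2.30%). Annotated exon lengths run from 294 to 480 bases in functional segments, so usage was also compared between segments per exon length. On that scale Ighv1-26 had 10.04% of the length-scaled counts, Ighv9-3 5.14% and Ighv1-82 3.27%. The first 5 kept their order, and 10 of the 12 were again among the 12 most used. In all, 37 functional segments had a mean share above 1% and 29 had less than 0.1%.

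Of the 110 segments tested between the groups in a fit across all 13035 tested genes, 1 was called (0.909%), and it was higher in the labelled libraries. Called means an adjusted p under 0.05 in the edgeR quasi-likelihood test, adjusted by Benjamini-Hochberg over all tested genes. Among all tested genes 3.12% were called, 1.83% higher and 1.3% lower. The ranges of CPM in the groups did not overlap for 4 segments (3.64%), against 11.2% of all tested genes. Of these 4, Ighv9-3 and Ighv1-49 were above in the labelled libraries, against 6.24% of all tested genes, and Ighv8-6 and the pseudogene Ighv1-2 were below, against 4.98%. As shares of Ighv counts, groups did not overlap for 7 of the 110 tested segments. Other genes have no such share, so no background stands beside this count. Ighv9-3, Ighv1-85, Ighv1-20 and Ighv1-49 were above in the labelled libraries and Ighv1-64, Ighv1-74 and Ighv8-6 below. The most used of the 3 below, Ighv1-64, had 2.92, 3.05, 2.93 and 2.88% in the controls and 2.83, 2.75, 2.82 and 2.60% in the labelled libraries. An unadjusted p under 0.05 was reached by 2 segments (1.82%) in edgeR, against 17.3% of all tested genes. The median biological coefficient of variation, the spread between libraries beyond counting error, was 0.101 for segments and 0.0863 for all tested genes. A larger spread makes a difference harder to call. The median absolute log2 fold change of the segments was 0.07, and that of all tested genes 0.09. The median log2 fold change was -0.03, with 43 segments positive and 67 negative, beside -0.01 over all tested genes. Among the 51 segments of at least 10 CPM, log2 fold changes ran from -0.18 (Ighv5-6) to 0.19 (Ighv9-3).

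The called segment was Ighv9-3 (ENSMUSG00000096459, chr12:114140692-114141122, minus strand, 614 kb from the D segments). Its level was 80.4, 82.9, 78.6 and 83.7 CPM in the controls and 94.3, 91.6, 93.7 and 91.1 CPM in the labelled libraries. The lowest labelled library lay 7.42 CPM above the highest control. The means were 92.7 ± 1.55 against 81.4 ± 2.34 CPM (SD, n = 4 each), with a log2 fold change of 0.19 ± 0.04 (SE; adjusted p 0.0416, edgeR). Its share of Ighv counts was 5.28% ± 0.179 against 4.57% ± 0.234. The call was lost when any 1 library other than labelled replicate 1 was left out and when no filter was applied, with adjusted p of up to 0.157 in edgeR. The log2 fold change itself stayed between 0.17 and 0.20 under all 14 alternatives to this fit. These reuse the libraries that chose Ighv9-3 and so give no separate support. The authors' deposited table gives Ighv9-3 a log2 fold change of 0.18 and an adjusted p of 0.00306. That table compares the same groups and so gives no separate support.

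The last 300 bases of the Ighv9-3 V exon, at chr12:114140692-114140991 on the minus strand of GRCm38, are printed because this segment carries the 1 difference that was called. Capitals again mark the cysteine codon and the bases after it.
Ighv9-3: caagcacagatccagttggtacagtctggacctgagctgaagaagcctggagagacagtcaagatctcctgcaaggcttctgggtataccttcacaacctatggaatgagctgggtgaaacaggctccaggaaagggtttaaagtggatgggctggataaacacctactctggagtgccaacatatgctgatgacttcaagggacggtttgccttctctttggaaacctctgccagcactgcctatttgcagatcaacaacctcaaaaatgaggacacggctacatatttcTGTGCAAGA
The other members of the family differ from it over the 305 bases of the V exon at 17 positions (Ighv9-2), 20 (Ighv9-1) and 25 (Ighv9-4). All windows of 100 bases, the read length, in the Ighv9-3 transcript were unique among the transcripts of the 175 Ighv entries analysed. The 10 annotated Ighv genes not analysed were not compared. The ends of these 3 V exons are shown to compare with that of Ighv9-3, and over these 60 bases Ighv9-2 does not differ from it.
Ighv9-1: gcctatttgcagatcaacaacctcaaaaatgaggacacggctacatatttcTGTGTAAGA
Ighv9-2: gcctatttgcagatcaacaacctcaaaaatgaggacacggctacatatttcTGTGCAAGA
Ighv9-4: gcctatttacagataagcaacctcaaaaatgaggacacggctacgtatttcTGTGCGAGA
None of these 3 passed the test. The log2 fold changes were 0.06 ± 0.15 (SE) for Ighv9-1, 0.08 ± 0.11 for Ighv9-2 and 0.07 ± 0.10 for Ighv9-4, at mean shares of 0.503, 0.499 and 0.508%. Their summed share was 1.56% ± 0.0686 in the labelled libraries and 1.46% ± 0.184 in the controls (SD, n = 4 each), and the groups overlapped. With Ighv9-3 left out of all Ighv counts, 0 of the 15 families had groups without overlap.

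**Figure D3:**
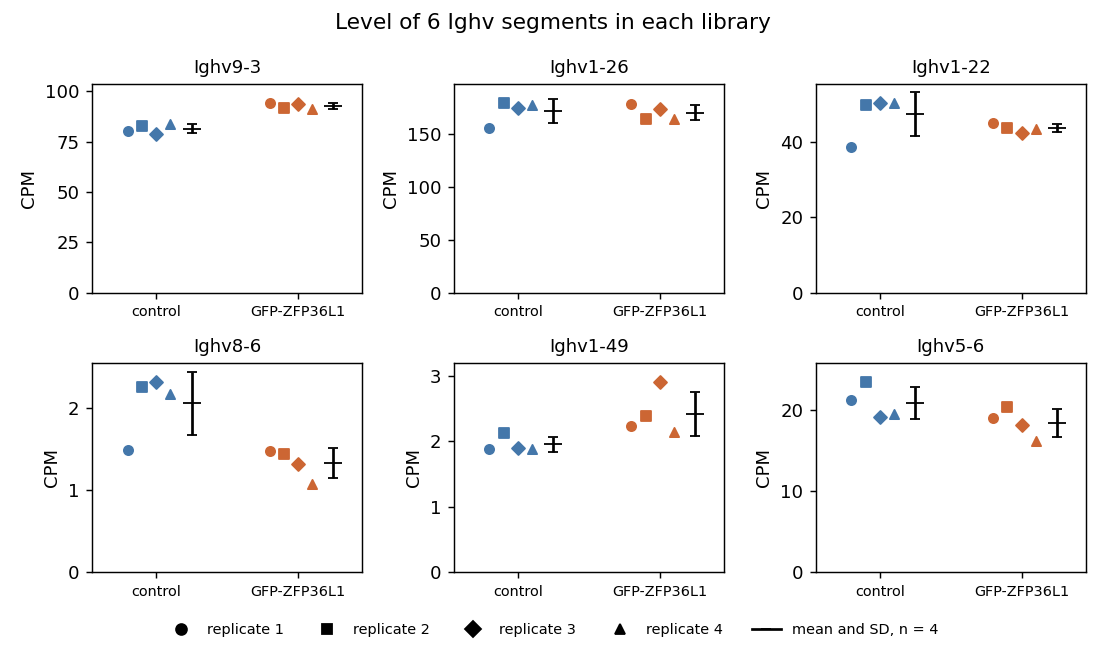
Level in CPM (vertical axes from 0) of 6 Ighv segments in the control libraries (blue) and those labelled GFP-ZFP36L1 (orange), with each library as a point and the mean and SD of 4 beside them. For Ighv9-3 the labelled libraries sit at 91.1 to 94.3 and the controls at 78.6 to 83.7.

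None of the other segments named by rule passed the test. Ighv8-6 (ENSMUSG00000094505, chr12:115165777-115166220, minus strand) had the smallest p among segments with a negative value. Its level was 1.48, 2.25, 2.31 and 2.16 CPM in the controls and 1.47, 1.44, 1.31 and 1.07 CPM in the labelled libraries. Control 1 was almost level with the highest labelled library, and the other 3 controls stood well above. The log2 fold change was -0.63 ± 0.18 (SE; adjusted p 0.0899, edgeR). It was called by DESeq2 (adjusted p 0.0358), where 6.67% of all genes tested were called, and by edgeR with a linear term for the title number (adjusted p 0.0417), where 7.9% were. It was also called by edgeR without control replicate 1 (adjusted p 0.0455), where 240 of 13184 genes were called. Leaving out that library removes the control nearest the labelled libraries, so this call gives no separate support. The authors' deposited table, which compares the same groups, gives Ighv8-6 a log2 fold change of -0.36 and an adjusted p of 0.0346. The end of its V exon is shown because it lacks the 9-base motif of Ighv9-3.
Ighv8-6: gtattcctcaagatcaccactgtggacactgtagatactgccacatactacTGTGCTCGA
Ighv1-49, Ighv1-85 and Ighv1-20 followed Ighv9-3 among segments with a positive value, with log2 fold changes of 0.31 ± 0.14, 0.16 ± 0.07 and 0.27 ± 0.14 (SE). Ighv5-6, Ighv1-74 and Ighv2-6 followed Ighv8-6 among those with a negative value, with -0.18 ± 0.09, -0.15 ± 0.08 and -0.21 ± 0.12 (SE). Adjusted p for these 6 ran from 0.291 to 0.416 in edgeR. Their directions held under all 14 alternatives, which reuse the libraries that chose them and so give no separate support. Ighv1-49 had 1.89, 2.13, 1.903 and 1.89 CPM in the controls and 2.23, 2.38, 2.91 and 2.14 CPM in the labelled libraries, so its groups were separated by a narrow gap.

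The most used segments other than Ighv9-3 did not pass. Ighv1-26 had 155, 179, 174 and 177 CPM in the controls and 178, 163, 173 and 164 CPM in the labelled libraries, and the groups overlapped. Its log2 fold change was -0.01 ± 0.06 (SE). The other 10 of the 12 most used had log2 fold changes from -0.12 (Ighv1-64) to 0.00 (Ighv8-8), with adjusted p of 0.439 or more in edgeR. Segments with a known association were also alike in level. Ighv11-2, found in B1 cells that bind phosphatidylcholine, had 1.48 ± 0.207 against 1.41 ± 0.0744 CPM, and Ighv12-3, found in such cells too, 4.1997 ± 0.261 against 4.03 ± 0.306 CPM (SD, n = 4 each). Ighv5-2 had 7.79 ± 0.445 against 7.38 ± 0.402 CPM. Ighv1-72, the segment that dominates the response of C57BL/6 mice to the hapten NP, had 26.5 ± 2.33 against 27.4 ± 1.85 CPM. Adjusted p for these 4 ran from 0.700 to 0.853 in edgeR.

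**Figure D4:**
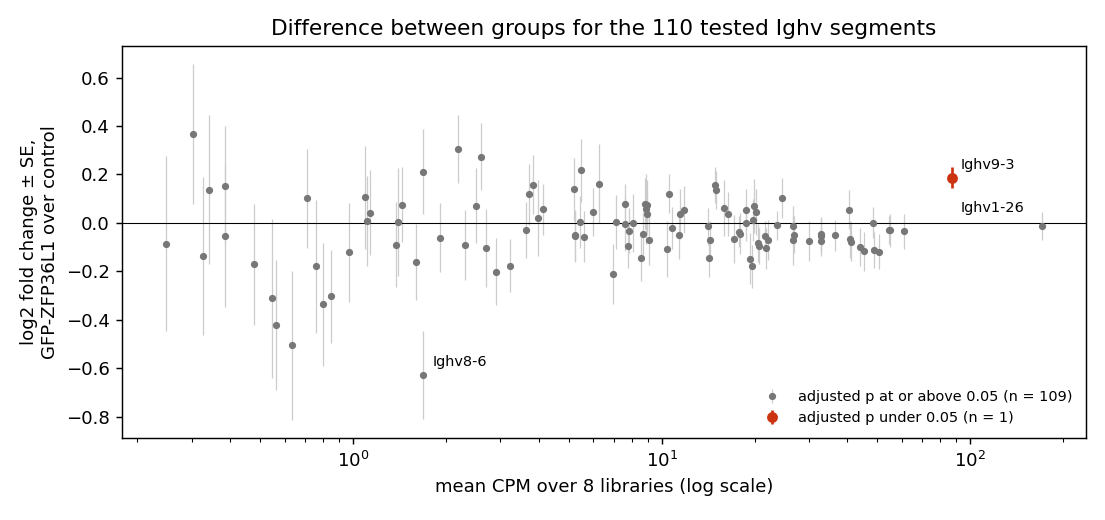
Log2 fold change, labelled GFP-ZFP36L1 over control, with its SE (vertical axis) against mean CPM over 8 libraries on a log scale (horizontal axis) for the 110 tested segments. Ighv9-3 is the sole segment with an adjusted p under 0.05 in edgeR, and segments of at least 10 CPM lie between -0.18 and 0.19.

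Libraries of a group differed from each other in usage by amounts like those between groups. The share of Ighv counts that would have to sit on other segments to make a pair of libraries alike was 2.63 to 3.95% within the controls (median 3.30%, 6 pairs). It was 2.73 to 4.96% within the labelled libraries (median 3.45%, 6 pairs) and 3.01 to 5.38% across groups (median 3.42%, 16 pairs). In a check for a library deposited more than once, chi-square per degree of freedom between pairs was 1.85 to 6.50 over Ighv segments and 6.61 to 75.1 over all genes. The within-group variance of the median segment was 2.18 times that of counting error, and for 17 segments it was at or under 1. Ighv6-3, chosen after its values were seen, had the highest at 18.5 times. Its share was 1.52, 1.27, 1.65 and 1.67% in the controls and 1.55, 1.26, 1.41 and 1.70% in the labelled libraries. In each group replicate 2 was the lowest. These libraries are neighbours in the order of titles, and the labels used here do not say whether they are a pair.

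Evenness and pseudogene counts were alike in the groups. The effective number of segments, the number of equally used segments with the same Shannon entropy, was 58.8, 59.5, 59.4 and 59.99 in the controls. It was 59.01, 59.1, 59.4 and 59.7 in the labelled libraries, inside the range of the controls. Annotated pseudogenes drew 0.646% ± 0.0792 of Ighv counts in the labelled libraries and 0.681% ± 0.0266 in the controls (SD, n = 4 each). Ighv1-2 had the highest share of any pseudogene, at 0.182%.

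The total Ighv level was 1641, 1878, 1786 and 1830 CPM in the controls and 1862, 1719, 1787 and 1659 CPM in the labelled libraries, and the groups overlapped. Ighv counts were also set against those of Ighm and Ighd, the genes for the IgM and IgD constant regions, which are made from 1 primary transcript by alternative processing. Per 1000 counts of Ighm and Ighd together there were 188, 223, 198 and 223 Ighv counts in the controls and 226, 229.8, 231 and 227 in the labelled libraries, all above the controls. Per 1000 counts of Ighm alone there were 298 to 362 in the controls and 326 to 357 in the labelled libraries, and the groups overlapped. Per 1000 counts of Ighd alone there were 512 to 595 in the controls and 657 to 744 in the labelled libraries, with no overlap. Ighm had 5165 ± 260 against 5413 ± 323 CPM (SD, n = 4 each) and a log2 fold change of -0.07 ± 0.08 (SE; adjusted p 0.727, edgeR). Ighd had 2522 ± 226 against 3173 ± 65.9 CPM (SD, n = 4 each), fell by 0.33 ± 0.08 (SE) on the log2 scale, and had an adjusted p of 0.0493 in edgeR. That call was lost without any 1 library other than labelled replicate 1, with adjusted p of up to 0.152 in edgeR.

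Some segments are nearly identical over long stretches. The V exons of Ighv1-62-2 and Ighv1-71 have 0 differences over 313 bases, and their ends are printed to show a pair that reads from these bases cannot separate.
Ighv1-62-2: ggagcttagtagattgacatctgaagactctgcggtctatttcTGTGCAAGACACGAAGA
Ighv1-71: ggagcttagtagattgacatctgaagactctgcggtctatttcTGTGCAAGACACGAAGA
Of the 100-base windows of their transcripts, 9.68% and 3.08% were unique among the transcripts of the 175 Ighv entries analysed. Their mean shares were 0.00329% and 0.000334%, and both levels are uncertain. Ighv1-72 and Ighv1-62-3 differ at 3 positions over 305 bases, with 57.2% and 60.1% of windows unique, and had mean shares of 1.52% and 0.0308%. In all, 45 members shared at least 1 such window with another member, and these 45 held 31.1% of counts. Ighv1-26 and Ighv1-18 differ at 8 positions over 305 bases, and 92.1% of the windows of Ighv1-26 were unique. The sources used here do not say how reads that match several segments were counted, and its part in these levels was not tested.

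Genes of the joining reaction were at or near 0 where they are specific to it. Dntt, the polymerase that adds bases at the joins, had 0 counts in all 8 libraries. Rag1 and Rag2, the recombinase genes, had at most 0.115 and 0.0244 CPM. Of 17 genes of V(D)J recombination, most of them general DNA repair factors, 14 were tested, with a median log2 fold change of -0.03. EdgeR called 0 of them, beside 3.12% of all tested genes. Of 17 regulators of the heavy-chain locus 16 were tested, and 1 was called lower, where 1.3% of all tested genes were. This was Pax5, the transcription factor that maintains B cell identity. It had 210.2 ± 6.82 against 244.6 ± 8.06 CPM (SD, n = 4 each) and a log2 fold change of -0.22 ± 0.05 (SE; adjusted p 0.0405, edgeR). The Pax5 call was lost with no filter and without any 1 of control replicates 2, 3 and 4 and labelled replicates 2 and 3, with adjusted p of up to 0.145 in edgeR. Of 8 genes of somatic mutation and class switching, 7 were tested and 0 were called, beside 3.12% of all tested genes.

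Markers of other B cell states are given beside these results. The 15 plasma cell markers summed to 525 to 566 CPM in the controls and 542 to 599 CPM in the labelled libraries. Of the 13 tested, 3 had positive and 10 negative log2 fold changes, and 2 were called lower, where 1.3% of all tested genes were: Fkbp11, a foldase of the secretory pathway, and Ighg1, the IgG1 constant gene. Ighg1 had 0.589 ± 0.161 against 1.84 ± 0.450 CPM (SD, n = 4 each), a call that held under all 14 alternatives. Fkbp11 had 2.11 ± 0.529 against 3.75 ± 0.293 CPM, and its call was lost without any 1 control or without labelled replicate 2 or 3. Tnfrsf17, the receptor BCMA, was at 0 in all libraries, and Jchain, which links secreted antibody, had 0.919 ± 0.174 against 1.598 ± 0.536 CPM (adjusted p 0.109, edgeR) and did not pass. The positive values were those of Prdm1, the plasma cell transcription factor Blimp-1 (log2 fold change 0.59 ± 0.19, SE, groups not overlapping), Irf4 (0.14 ± 0.05) and Mzb1 (0.13 ± 0.07), which did not pass either, with adjusted p of 0.120 to 0.379 in edgeR. These 3 and Jchain are named to show both directions, and all but Jchain were chosen after their values were seen.

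The 11 B1 cell markers summed to 97.8 to 129 CPM in the controls and 105 to 140.2 CPM in the labelled libraries, with 6 positive and 5 negative log2 fold changes among the 11 tested. Of these, 2 were called higher, where 1.83% of all tested genes were. The integrin gene Itgam had 3.41 ± 0.725 against 1.96 ± 0.335 CPM and the chemokine receptor gene Ccr1 6.97 ± 2.01 against 3.44 ± 0.451 CPM (SD, n = 4 each). The Itgam call was lost without any 1 library other than labelled replicate 1, and that of Ccr1 without control replicate 2, 3 or 4. Among the negative values, chosen after they were seen, were Zbtb32 (log2 fold change -0.96 ± 0.29, SE, groups not overlapping), Spn (-0.40 ± 0.13) and Cd5 (-0.35 ± 0.21), which did not pass, with adjusted p of 0.103 to 0.424 in edgeR. The 11 marginal zone markers summed to 2656 to 2824 CPM in the controls and 2570 to 2881 CPM in the labelled libraries. Of the 11 tested, 4 had positive and 7 negative log2 fold changes. Myof, a membrane repair gene, was called higher, where 1.83% of all tested genes were, and Asb2 and Rasgrp2 lower, where 1.3% were. The calls of Myof, Asb2 and Rasgrp2 were each lost without control replicate 2, 3 or 4. That of Myof was also lost with no filter and without control replicate 1. That of Asb2 was also lost without control replicate 1 or labelled replicate 2, 3 or 4, and that of Rasgrp2 without labelled replicate 2 or 4. The 10 germinal centre markers summed to 358 to 426 CPM in the controls and 270 to 364 CPM in the labelled libraries. Of the 8 tested, 3 had positive and 5 negative values. Lmo2, a transcription cofactor, was called lower, where 1.3% of all tested genes were. Whether any of these markers has a part in the level of Ighv9-3 was not tested.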

How the data were processed

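Stranded mRNA libraries had been sequenced in pairs of 100 bp reads, per the labels. The submitters' processing notes name Trim Galore, TopHat2 2.0.12, HTSeq, DESeq2 1.10.1 and build GRCm38. The settings for strand and for reads that match several genes are not given in those notes as used here. The authors deposited raw counts per gene, the basis of every result. Each of the 8 count columns matched a sample title, 0 were unmapped and 0 entries named no gene. How far reads that cross a V-D-J join were counted is not known.

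A deposited table of normalized values was read as a signal, since raw count over value was constant within a library, and served as a check. The deposited log2 fold changes and p-values are quoted where that table is named. Its mean levels differ from the means of the deposited normalized values, and how its fold changes were fitted is not known here, so their sizes are not compared with those of edgeR. Symbols, coordinates and transcripts came from GENCODE M21 (GRCm38), and 42548 of 43629 identifiers had a symbol. Recombination signals beside the segments were not analysed here.

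The fit used R 4.3.3 and edgeR 4.0.16 (filterByExpr, TMM factors, robust quasi-likelihood test, Benjamini-Hochberg over 13035 tested genes), was tested on simulated data, and had DESeq2 1.42.0 as an alternative. Standard errors of log2 fold changes came from the F statistic. Shares of families (of at least 0.1% mean share) and stretches were compared by two-sided exact permutation over 70 assignments. Totals, evenness and pseudogene counts over all members are given without a test. The cysteine codon was the last that follows a tyrosine and a tyrosine or phenylalanine codon.

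Named segments were the 12 most used, those called (or the 4 smallest p in a direction with fewer than 4 calls), and Ighv11-2, Ighv12-3, Ighv5-2 and Ighv1-72. Named other genes were called list members, up to 4 per list, and Ighm, Ighd, Rag1, Rag2, Dntt and Jchain. The members and lists were chosen with earlier results of these data known. Iglc1 and Iglc3 were not matched. Of lists not described with the results, edgeR called 0 of 2 tested surrogate light chain genes, 0 of 6 transitional B cell, 0 of 2 T cell, 0 of 5 myeloid and 0 of 4 NK or erythroid markers. It called 1 of 6 B cell receptor genes (Ighd), which was lower. Over all tested genes it called 3.12%, and 1.3% were lower. The list of follicular B cell markers is not reported here.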

Additional observations from a re-analysis of the deposited data

Results flagged for a closer look

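Among 92 sets of 4 libraries examined, 3 held a library far from the other 3 of its group, where chance gives about 1 in 20. Ighv1-22 was at 38.5 CPM in control replicate 1 and at 49.8 to 50.4 CPM in the other controls. Ighv1-49 was at 2.13 CPM in control replicate 2 and at 1.89 to 1.90 CPM in the other controls. The share of the third stretch of the locus from the D segments was 27.04% in control replicate 2 and 27.13 to 27.15% in the other controls.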

How the results depend on the processing

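The number of Ighv segments called was 1 in edgeR, 2 with DESeq2, 2 with the title number entered as a linear term, 0 with no filter (3 segments had an unadjusted p under 0.05 in edgeR), and 0 to 1 with each library left out. It stayed at 1 with RLE factors, with a filter of 1 CPM in 4 libraries and with TMM factors set without immunoglobulin segments. The cause was not tested. Over all genes tested, 407 of 13035 were called (3.12%), 876 of 13129 with DESeq2 (6.67%) and 1030 of 13035 with the title number (7.9%). With no filter 509 of 21447 genes were called, and 2545 had an unadjusted p under 0.05 in edgeR. RLE factors gave 413 of 13035, the 1 CPM filter 372 of 11209, and TMM factors set without immunoglobulin segments 410 of 13035. With each library left out, 79 to 948 were called. The log2 difference of the total Ighv level was -0.02, and 0.14 as a ratio to Ighm and Ighd counts.

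A family could not pass the adjustment alone at these group sizes, though its adjusted p still reflects the number of families tested. Groups did not overlap in Ighv9 under 13 of 14 alternatives, the exception being that without Ighv9-3. Leaving out a library or taking log2 of the share cannot make separated groups overlap. For Ighv9 these alternatives, most of the 14, were thus no check. Of 209 family differences under alternatives, 7 changed sign. Besides Ighv9, groups did not overlap in Ighv1 without control replicate 4 and in Ighv14 without labelled replicate 4. Leaving out Ighv9-3 was chosen after seeing the data. No paired analysis was possible because the labels give no replicate numbers. Ighv8-6 rested on 44 to 112 counts per library and Ighv9-3 on 3303 to 4458.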
